A study of Mus musculus with 12 samples.

Results

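Known target genes of MLL fusions that lie outside the Hoxa cluster were examined: *Myb*, *Myc*, *Cdk6*, *Mef2c*, *Jmjd1c*, *Zeb2*, *Mecom*, *Eya1* and *Lmo2*. They were chosen by symbol from general knowledge of MLL-rearranged leukemia, and all 9 had a row among the 25263 symbols of the expression table. Of these, 7 had a mean of at least 1 FPKM over the 12 libraries and were among the 13169 symbols tested; *Mecom* and *Eya1* were near 0 and were not tested. FPKM, the fragment count divided by transcript length and library size, is a level per length. The study sequenced total RNA of mouse bone marrow leukemic cells driven by MLL-AF9, a fusion of the histone methyltransferase MLL with AF9 (MA9 in the labels). All 12 libraries came from cells that were cultured overnight with SCF, GM-CSF, IL-3 and IL-6, infected with a retrovirus and sorted for high GFP. WT-GFP and WT-Cre were leukemic cells with a wild type Hoxa cluster in the C57BL/6 strain, with the control virus and with Cre recombinase. Hoxa-flox and Hoxa-del were leukemic cells with a floxed Hoxa cluster in the C57BL/6J strain, with the control virus and with Cre, which cuts out DNA between loxP sites. Each group had 3 libraries, from adult animals; the labels do not say whether these came from separate animals, leukemias or cultures, so the p-values below reflect the spread among these libraries alone, which may be technical. Genotype, strain and leukemia differed together between WT and floxed cells and cannot be told apart. In bulk RNA, fewer cells of a type and less RNA per cell cannot be told apart either.

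MLL fusions bind chromatin and recruit complexes for transcription elongation and the H3K79 methyltransferase DOT1L, which keeps a set of progenitor genes active that normally fall silent during myeloid differentiation. The Hoxa genes and *Meis1* are the best known of these targets. Around them stands a wider program that includes the transcription factors MYB, MYC, MEF2C, ZEB2 and MECOM, the cell cycle kinase CDK6, the demethylase-like protein JMJD1C, the cofactor EYA1 and the adaptor LMO2. Several of these genes are known dependencies of MLL-AF9 cells. Cre in this design cuts the floxed Hoxa cluster, and the program can be read beside the Hoxa RNA that remains.

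The targeted locus was checked first. *Hoxa9*, a homeodomain factor central to MLL-rearranged leukemia, read 235, 217 and 257 FPKM in Hoxa-flox and 83.5, 114 and 119 in Hoxa-del, so part of its RNA remained in the deleted libraries. In the WT cells it read 183, 159 and 159 with the control virus and 161, 171 and 152 with Cre. Estimated depth ran from 3.94 M fragments (WT-Cre 2) to 18.6 M (WT-GFP 3). The 6 floxed libraries fell into 2 sets, each with libraries of both groups. In one, Hoxa-del 2 stood with Hoxa-flox 1 and Hoxa-flox 2 at low *Mki67*, the proliferation marker Ki-67 (14.9 to 17.8 FPKM), and in the other Hoxa-flox 3 stood with Hoxa-del 1 and Hoxa-del 3 at high *Mki67* (84.6 to 93.2). Libraries correlated at r = 0.951 to 0.987 across genes within a set and at 0.911 to 0.927 between sets. The labels do not name these sets. The leukocyte markers *Ptprc* and *Itgam* summed to at least 146.8 FPKM in every library, and 5 T cell markers with a row summed to at most 0.417.

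Cre in the floxed cells, where part of the Hoxa RNA remained, left the 7 tested genes without a call when all libraries were used. In Hoxa-del against Hoxa-flox, 0 of 7 passed the threshold, and the groups overlapped for each of the 7, where 0.0304% of 13169 symbols were called and 6.39% had groups that did not overlap. Of 3 genes of the deleted cluster read in the same test, only *Hoxa9* passed (log2 change -1.17, adjusted p = 0.0422, limma). *Hoxa10* (-1.36, adjusted p = 0.719, limma) and *Hoxa7* (-1.06, 0.719) were lower without overlap and did not pass. A missing call here therefore does not show that a gene was unchanged. Without Hoxa-del 2, the deleted library of the set with low *Mki67*, 2 of 7 passed (*Jmjd1c* and *Zeb2*) and the count over all symbols went from 4 to 787. In WT-Cre against WT-GFP, with an intact cluster, 0 of 7 passed as well (0.0152% of all symbols), while 3 of 7 had groups that did not overlap (25.7% of all symbols). The floxed and WT leukemias differed instead: with the control virus 5 of 7 passed, 3 higher in the floxed cells (*Cdk6*, *Jmjd1c*, *Myc*) and 2 lower (*Myb*, *Zeb2*), where 26.8% of all symbols were called, 13.3% higher and 13.5% lower; 6 of 7 had groups that did not overlap (47.2%). In Hoxa-del against WT-Cre 4 of 7 passed, *Cdk6*, *Jmjd1c*, *Myc* and *Myb* (27.2% of all symbols), and 5 of 7 did not overlap (41.3%). The median change of the 7 genes was -0.03 in Hoxa-del against Hoxa-flox (all symbols -0.06) and 0.09 in Hoxa-flox against WT-GFP (all symbols 0.00), as log2 of FPKM + 1. Calls are from limma's moderated test over all 13169 symbols with Benjamini-Hochberg adjustment at 0.05, and 0 of 7 had an unadjusted p under 0.05 in either comparison of Cre with the control virus (6.27% of all symbols in floxed and 2.37% in WT cells). All groups shared 1 estimate of the spread per gene. The intervals and missing calls in WT cells therefore also carry the larger spread of the floxed libraries, and do not show that Cre had no effect there.

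**Figure D1:**
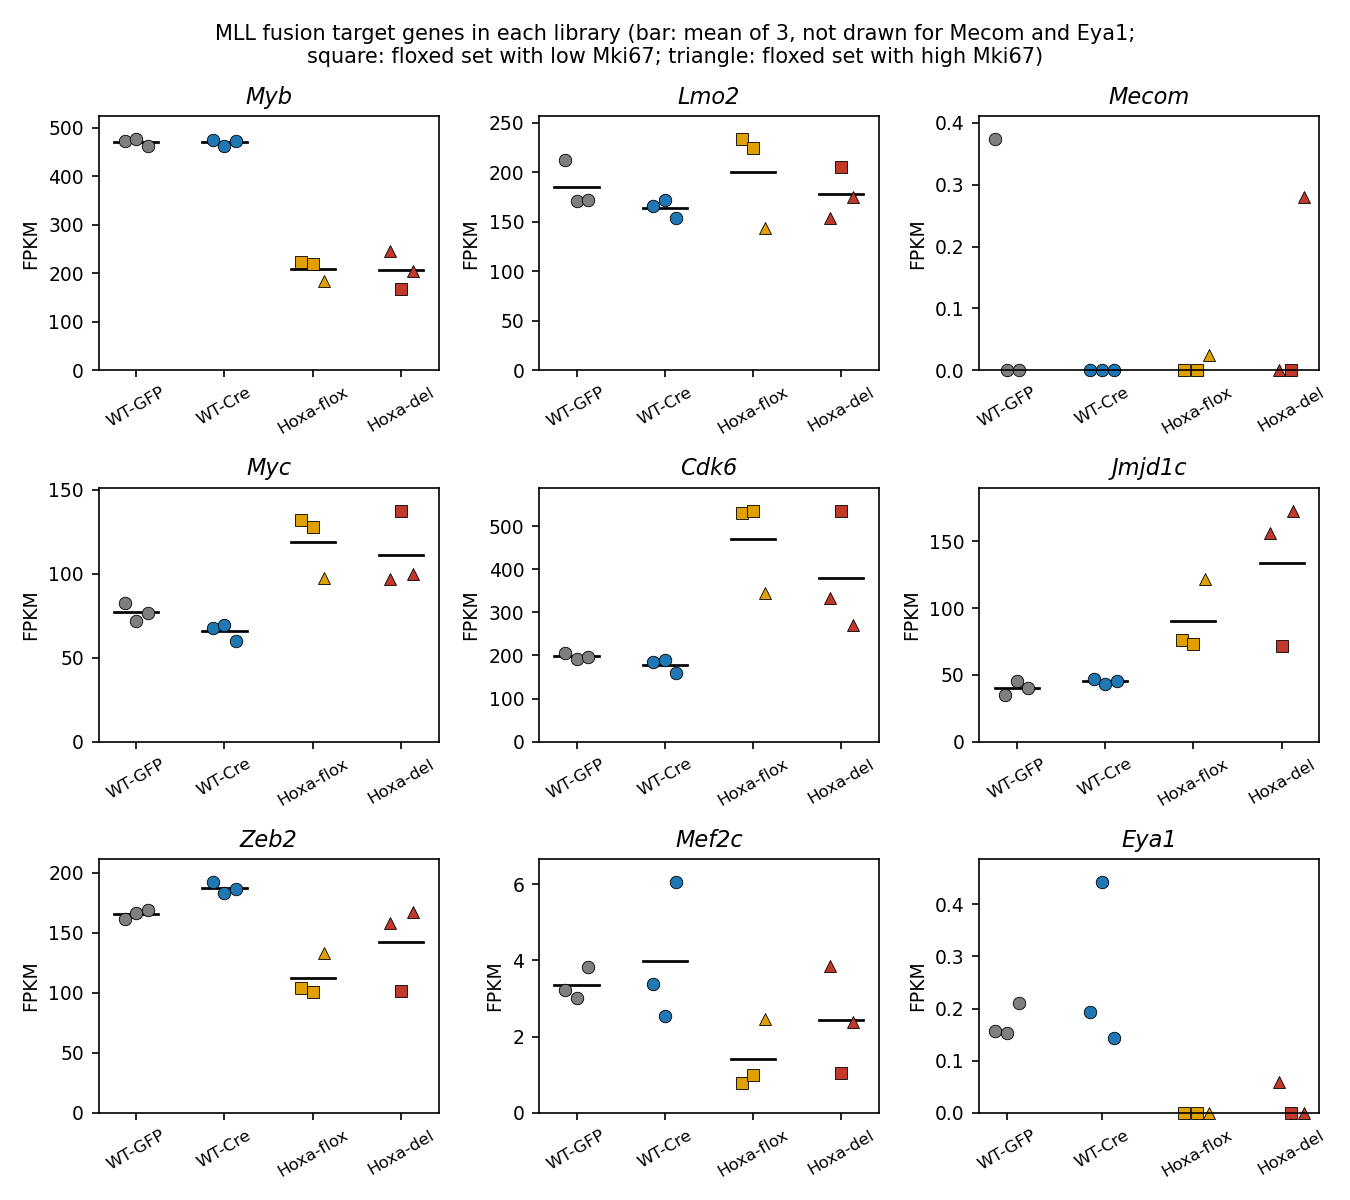
FPKM of the 9 target genes in each library, on linear axes that start at 0; each point is a library, and bars are means of 3 libraries (none for Mecom and Eya1). Squares are the floxed libraries with low Mki67 and triangles those with high Mki67. Myb lies between 168 and 246 FPKM in the 6 floxed libraries and between 462 and 476 in the 6 WT libraries.

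Promoter sequence is shown for the called genes that RefSeq's promoter table (GRCm38.p6) lists, since these genes differed between the leukemias; it had entries for 6 of the 9 genes and none for *Myc*, *Eya1* or *Lmo2*. Each run is the 250 bases before the most upstream listed start site, 5′ to 3′ on the gene's strand. For *Jmjd1c* and *Cdk6* this window lies inside the GENCODE gene span given below, downstream of where that span starts. Capitals mark letters of 5 motifs searched on both strands: CACGTG (the E-box of MYC and MAX), CACCTG (the E-box of ZEB proteins), TAACNG (MYB), TGATNNAT (HOX with PBX) and TGACAG (MEIS). None of these motifs overlapped another in the runs below.
Myb, chr10:21160985-21161234, minus strand: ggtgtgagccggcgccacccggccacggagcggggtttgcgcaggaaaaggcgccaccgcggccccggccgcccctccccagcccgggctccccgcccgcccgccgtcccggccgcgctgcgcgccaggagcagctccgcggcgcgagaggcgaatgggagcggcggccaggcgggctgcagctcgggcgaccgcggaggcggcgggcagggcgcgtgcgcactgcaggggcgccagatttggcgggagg
Cdk6, chr5:3343643-3343892, plus strand: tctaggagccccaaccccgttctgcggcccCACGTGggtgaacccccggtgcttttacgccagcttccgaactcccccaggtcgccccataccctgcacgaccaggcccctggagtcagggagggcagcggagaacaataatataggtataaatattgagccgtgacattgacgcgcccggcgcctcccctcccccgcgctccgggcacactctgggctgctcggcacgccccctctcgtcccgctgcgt
Jmjd1c, chr10:67126838-67127087, plus strand: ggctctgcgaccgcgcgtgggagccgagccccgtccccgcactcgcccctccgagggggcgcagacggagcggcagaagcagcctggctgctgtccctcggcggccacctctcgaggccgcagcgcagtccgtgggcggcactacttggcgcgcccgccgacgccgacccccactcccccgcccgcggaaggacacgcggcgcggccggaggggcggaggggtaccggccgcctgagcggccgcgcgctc
Zeb2, chr2:45117443-45117692, minus strand: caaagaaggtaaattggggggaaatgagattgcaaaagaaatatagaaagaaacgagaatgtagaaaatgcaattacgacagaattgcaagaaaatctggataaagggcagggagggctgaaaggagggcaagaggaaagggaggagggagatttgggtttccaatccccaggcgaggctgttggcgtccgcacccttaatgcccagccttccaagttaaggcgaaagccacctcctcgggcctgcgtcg
Among these 4 runs only that of *Cdk6* held a match, to CACGTG, which 6.02% of the 32851 promoters in the table hold in the same window. Over the same promoters, 17.2% hold CACCTG, 19.8% TAACNG, 7.68% TGATNNAT and 15.9% TGACAG. Their base composition differed: G and C made up 81.2% of the *Myb* run, 79.6% of *Jmjd1c*, 66.0% of *Cdk6* and 49.6% of *Zeb2*, against a median of 52.4% over all promoters. These matches are a description of letters in one window.

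*Myb* encodes a transcription factor of immature hematopoietic cells that sustains self-renewal in MLL-AF9 leukemia. The gene lies on chromosome 10 from 21124935 to 21160984 (GRCm38, GENCODE M21, minus strand). It read 472, 476 and 463 FPKM in WT-GFP, 474, 462 and 472 in WT-Cre, 222, 218 and 184 in Hoxa-flox and 246, 168 and 204 in Hoxa-del. Every floxed library lay below every WT library, and the libraries with and without Cre overlapped in both genotypes. *Myb* was lower in Hoxa-flox than in WT-GFP by a log2 change of -1.18 (SE 0.16, adjusted p = 0.000282, limma), a ratio of means of 0.443. In the Cre-treated cells, which share no library with that comparison, Hoxa-del was lower than WT-Cre by -1.20 (SE 0.16, adjusted p = 0.000249, limma). Both comparisons use the same estimate of the spread, and the labels do not say whether their cells came from the same leukemias. The change with Cre was -0.03 in floxed cells (95% interval -0.38 to 0.32) and 0.00 in WT cells (-0.35 to 0.35).

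*Myc*, the basic helix-loop-helix regulator of growth and biosynthesis, lies on chromosome 15 from 61985391 to 61990374 (plus strand). It read 82.4, 71.8 and 76.6 FPKM in WT-GFP, 67.7, 69.4 and 60.1 in WT-Cre, 132, 128 and 97.6 in Hoxa-flox and 96.6, 137 and 99.8 in Hoxa-del. All 6 floxed libraries lay above all 6 WT libraries, and WT-Cre lay below WT-GFP without overlap. *Myc* was higher in Hoxa-flox than in WT-GFP by 0.61 (SE 0.17, adjusted p = 0.0197, limma) and in Hoxa-del than in WT-Cre by 0.74 (SE 0.17, adjusted p = 0.00794, limma). With Cre it differed by -0.23 in WT cells (95% interval -0.60 to 0.15) and by -0.10 in floxed cells (-0.47 to 0.27). The call against WT-GFP was lost without WT-GFP 2 (adjusted p = 0.0788, limma), WT-GFP 3 (0.0632), Hoxa-flox 1 (0.0758) or Hoxa-flox 2 (0.0734).

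*Cdk6* encodes a kinase that, with D-type cyclins, phosphorylates RB and starts the cell cycle. It lies on chromosome 5 from 3341485 to 3531008 (plus strand). Its highest row read 205, 192 and 196 FPKM in WT-GFP, 184, 189 and 159 in WT-Cre, 532, 536 and 346 in Hoxa-flox and 333, 535 and 270 in Hoxa-del. All floxed libraries exceeded all WT libraries, WT-Cre lay below WT-GFP without overlap, and among the floxed libraries Hoxa-flox 1, Hoxa-flox 2 and Hoxa-del 2 were the highest. *Cdk6* was higher in Hoxa-flox than in WT-GFP by 1.22 (SE 0.25, adjusted p = 0.00396, limma) and in Hoxa-del than in WT-Cre by 1.03 (SE 0.25, adjusted p = 0.0104, limma). With Cre it differed by -0.35 in floxed cells (95% interval -0.89 to 0.20) and by -0.16 in WT cells (-0.71 to 0.39). Summing the 4 rows that carry the symbol reduced the changes between the leukemias to 0.73 (adjusted p = 0.00858, limma) and 0.57 (0.0292).

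*Jmjd1c*, a JmjC-domain protein of the KDM3 family that MLL-AF9 and other myeloid leukemias depend on, lies on chromosome 10 from 67096125 to 67256326 (plus strand). It read 35.2, 45.2 and 40.5 FPKM in WT-GFP, 46.8, 43.0 and 45.8 in WT-Cre, 76.1, 72.9 and 122 in Hoxa-flox and 157, 71.7 and 173 in Hoxa-del. The floxed libraries all lay above the WT libraries, with Hoxa-flox 3, Hoxa-del 1 and Hoxa-del 3 the highest. The change was 1.11 in Hoxa-flox against WT-GFP (SE 0.30, adjusted p = 0.0185, limma) and 1.45 in Hoxa-del against WT-Cre (SE 0.30, adjusted p = 0.00457, limma). Hoxa-del and Hoxa-flox differed by 0.50 (95% interval -0.16 to 1.17). That difference passed only without Hoxa-del 2 (0.90, adjusted p = 0.0452, limma), when the 2 remaining Hoxa-del libraries were both of the set with high *Mki67*. The call against WT-GFP was lost without WT-GFP 1 (adjusted p = 0.0686, limma), WT-GFP 3 (0.0547) or Hoxa-flox 3 (0.0509).

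*Zeb2*, a zinc finger repressor of the ZEB family needed in myeloid leukemia cells, lies on chromosome 2 from 44983632 to 45117395 (minus strand). It read 162, 167 and 169 FPKM in WT-GFP, 192, 183 and 186 in WT-Cre, 104, 101 and 133 in Hoxa-flox and 158, 101 and 167 in Hoxa-del. WT-Cre lay above WT-GFP without overlap, at a change of 0.17 that did not pass (95% interval -0.24 to 0.59). The level in Hoxa-flox was lower than in WT-GFP by -0.56 (SE 0.19, adjusted p = 0.0467, limma), and this call was lost in 8 of 12 alternatives (adjusted p up to 0.147). Hoxa-del against WT-Cre gave -0.43 (SE 0.19, adjusted p = 0.119, limma). Hoxa-del against Hoxa-flox gave 0.31 (95% interval -0.10 to 0.72), and 0.54 without Hoxa-del 2 (adjusted p = 0.0467, limma).

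*Lmo2*, the LIM-domain adaptor that bridges GATA and basic helix-loop-helix factors in blood progenitors, was the gene of the set that differed least between the leukemias. It lies on chromosome 2 from 103957986 to 103981878 (plus strand). It read 212, 171 and 172 FPKM in WT-GFP, 166, 172 and 154 in WT-Cre, 233, 224 and 143 in Hoxa-flox and 154, 205 and 175 in Hoxa-del. All 4 groups overlapped. The change was 0.09 in Hoxa-flox against WT-GFP (95% interval -0.35 to 0.52) and 0.11 in Hoxa-del against WT-Cre (-0.33 to 0.55). With Cre it was -0.15 in floxed cells (-0.58 to 0.29) and -0.17 in WT cells (-0.60 to 0.27).

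*Mef2c*, a MADS-box transcription factor of lymphoid and leukemic progenitors, was low. The gene lies on chromosome 13 from 83504034 to 83667080 (plus strand). It read 3.22, 3.003 and 3.82 FPKM in WT-GFP, 3.37, 2.53 and 6.05 in WT-Cre, 0.780, 0.982 and 2.46 in Hoxa-flox and 3.85, 1.05 and 2.39 in Hoxa-del. Hoxa-flox lay below WT-GFP without overlap, at a change of -0.91 that missed the threshold (SE 0.36, adjusted p = 0.0840, limma). It passed with only these groups in the fit (adjusted p = 0.0482, limma), with replicate number as a block (0.0423) and without Hoxa-flox 3 (0.0271). Hoxa-del against Hoxa-flox gave 0.49 (95% interval -0.30 to 1.28) and Hoxa-del against WT-Cre -0.56 (-1.35 to 0.23).

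*Eya1* and *Mecom* lay at the lower end of the table. *Eya1*, a phosphatase and transcriptional coactivator (chromosome 1, 14168954 to 14310235, minus strand), read 0.158, 0.153 and 0.211 FPKM in WT-GFP and 0.193, 0.442 and 0.144 in WT-Cre. It was listed at 0 in 5 of the 6 floxed libraries and at 0.0585 in Hoxa-del 1. Read over its longest GENCODE transcript (4366 bases) and the estimated depths, the WT values stand for 7.38 to 17.1 fragments each. In the floxed libraries 3 fragments would read 0.0457 to 0.108 FPKM, so the WT values lay above the level that this depth could hide there. *Mecom*, the EVI1 locus (chromosome 3, 29951296 to 30548008, minus strand), read 0.373 in WT-GFP 1, 0.280 in Hoxa-del 3 and 0.0246 in Hoxa-flox 3 and was listed at 0 in the other 9 libraries. Its values followed no group. A listing at 0 may be a failed estimate or no fragments, and these estimates cover counting error only.

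By mean of each symbol's highest row over the 12 libraries the order of levels per length was *Myb* (338 FPKM), *Cdk6* (306), *Lmo2* (182), *Zeb2* (152), *Myc* (93.3), *Jmjd1c* (77.4), *Mef2c* (2.79), *Eya1* (0.113) and *Mecom* (0.0565). That row held 55.5% of the symbol's FPKM for *Cdk6*, 71.1% for *Jmjd1c* and 81.5% for *Zeb2*. With all rows of a symbol added, *Cdk6* would stand above *Myb*, *Zeb2* above *Lmo2* and *Jmjd1c* above *Myc*. The order of the highest rows also depended on the leukemia. *Myb* stood first in each of the 6 WT libraries, and *Cdk6* in each of the 6 floxed libraries. The neighbours *Lmo2* and *Zeb2* overlapped in Hoxa-del. By the highest row, *Lmo2* lay above *Zeb2* in WT-GFP and Hoxa-flox and below it in WT-Cre. With its lower rows added, *Zeb2* would overlap *Lmo2* in WT-GFP and Hoxa-flox. *Myc* and *Jmjd1c* overlapped in Hoxa-flox and in Hoxa-del. In the WT cells *Myc* lay above *Jmjd1c* in every library.

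**Figure D2:**
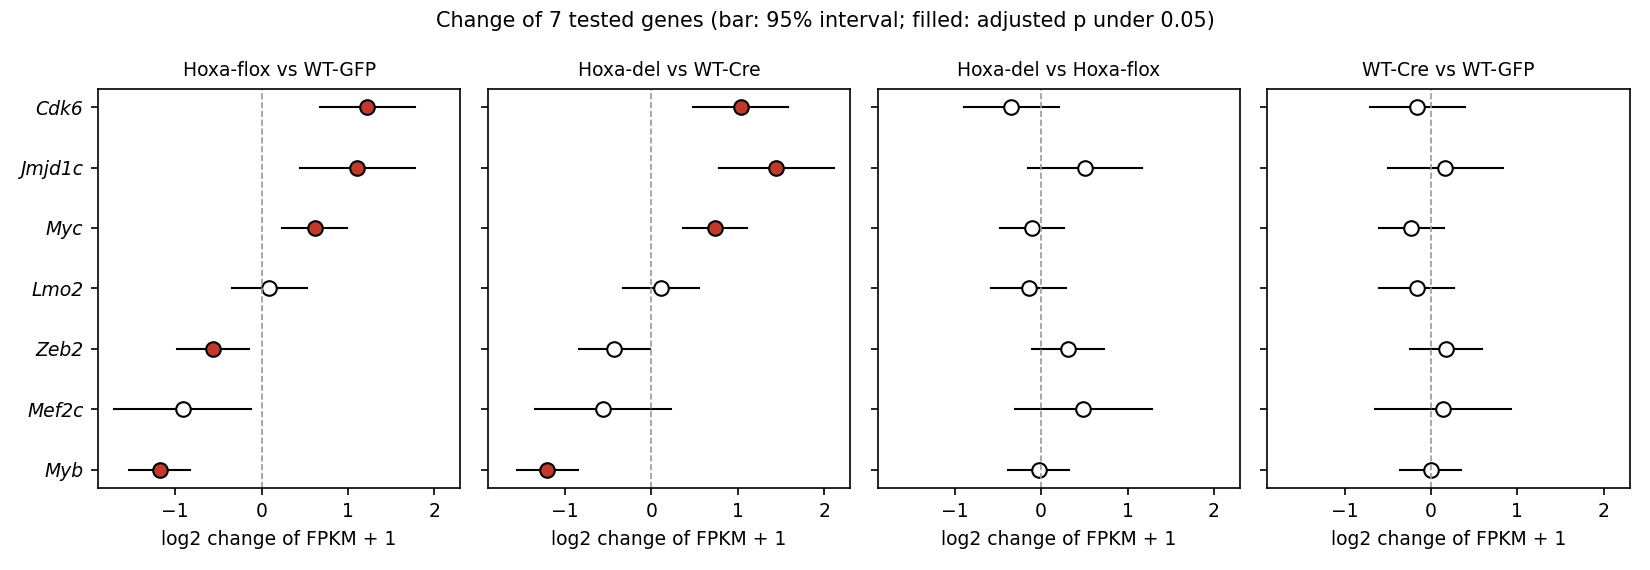
Change of the 7 tested genes as log2 of FPKM + 1 in 4 comparisons (x axis), with 95% intervals from limma; filled points had an adjusted p under 0.05. The 5 calls in Hoxa-flox against WT-GFP and the 4 in Hoxa-del against WT-Cre stand beside 0 in either comparison of Cre with the control virus.

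Whether Cre acted differently on the target genes in the floxed and the WT cells was tested as an interaction. None of the 7 passed (0.00759% of all symbols called), and 0 had an unadjusted p under 0.05 (2.46%). The estimates ran from -0.19 (*Cdk6*, SE 0.35) to 0.35 (*Mef2c*, SE 0.51). For *Myb*, the gene with the narrowest interval, the difference was -0.03 (95% interval -0.52 to 0.47). The intervals leave room for changes that the spread of these libraries hides: in floxed cells the upper bound was 1.28 for *Mef2c* and 1.17 for *Jmjd1c*, and the lower bound was -0.89 for *Cdk6*. The spread differed between groups, with a median SD per symbol on the log2 scale of 0.12 in both WT groups, 0.29 for Hoxa-flox and 0.36 for Hoxa-del. Through the common fit, the intervals given for WT cells reflect the floxed spread too.

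Within the floxed cells the target genes differed more between the 2 library sets than with Cre, as most symbols did. The set difference was larger in size than that of Hoxa-del and Hoxa-flox for all 7 and for 77.9% of all symbols, and for 6 of 7 the sets did not overlap, where 54.8% of all symbols did not overlap. Since the same values defined the sets, there is no test. *Cdk6* read 532 to 536 FPKM in the set with low *Mki67* and 270 to 346 in the set with high *Mki67*. *Myc* read 128 to 137 and 96.6 to 99.8, and *Lmo2* 205 to 233 and 143 to 175. In the opposite direction, *Jmjd1c* read 71.7 to 76.1 in the low set and 122 to 173 in the high set, *Zeb2* 101 to 104 and 133 to 167, and *Mef2c* 0.780 to 1.05 and 2.39 to 3.85. *Myb* was the exception, at 168 to 222 and 184 to 246.

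Comparing Hoxa-del with Hoxa-flox inside each set put 1 against 2 libraries in the low set and 2 against 1 in the high set. In the low set *Cdk6* differed by 0.0044, *Myc* by 0.08, *Jmjd1c* by -0.05 and *Zeb2* by -0.02, *Mef2c* by 0.13, *Lmo2* by -0.16 and *Myb* by -0.39. In the high set the differences were -0.21 for *Cdk6*, 0.01 for *Myc*, 0.43 for *Jmjd1c*, 0.29 for *Zeb2*, 0.23 for *Mef2c*, 0.20 for *Lmo2* and 0.28 for *Myb*. The sign differed between the sets for *Myb*, *Lmo2*, *Jmjd1c*, *Zeb2* and *Cdk6*, for the last 2 with a value near 0 in the low set, and these are differences of a few libraries with no test. With the set as a term in the fit, 0 of 7 passed. The markers of proliferation moved with the sets: *Mki67*, *Top2a* and *Ccnb1* summed to 48.8 to 218.8 FPKM over the Hoxa-flox libraries and to 60.4 to 204.4 over the Hoxa-del libraries, and their part in the target genes' levels was not tested.

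In both sets, Hoxa-flox differed from WT-GFP with the same sign for each tested gene except *Lmo2*. Against WT-GFP, *Cdk6* was higher by 1.43 in Hoxa-flox 1 and 2 and by 0.81 in Hoxa-flox 3, *Jmjd1c* by 0.88 and 1.58, and *Myc* by 0.75 and 0.34. *Myb* differed by -1.09 and -1.35, *Zeb2* by -0.69 and -0.32 and *Mef2c* by -1.21 and -0.32. *Lmo2* differed by 0.31 and -0.36. In Hoxa-del against WT-Cre the sign was the same in both sets for all 7, with *Lmo2* at 0.32 in Hoxa-del 2 and 0.0042 in Hoxa-del 1 and 3. Some other markers moved with genotype too. The 3 stem and progenitor markers *Cd34*, *Kit* and *Flt3* summed to 5.63 to 7.62 FPKM in the WT libraries and to 88.9 to 109.8 in the floxed libraries. The granulocyte and monocyte progenitor markers *Elane*, *Mpo*, *Prtn3* and *Ctsg* summed to 4442 to 5409 in WT-GFP and 2972 to 3537 in Hoxa-flox. With Cre the sums were 3479 to 3799 in WT-Cre and 2713 to 4253 in Hoxa-del. *Mpo* and *Elane* were lower in Hoxa-flox than in WT-GFP (adjusted p = 0.0041 and 0.0274, limma), while *Prtn3* and *Ctsg* did not pass. In Hoxa-del against WT-Cre none of them passed. The 6 macrophage markers summed to 172.8 to 210.7 and to 29.4 to 99.95. Of these 6, *C1qa*, *C1qb*, *C1qc*, *Msr1* and *Mrc1* were each at most 0.46 in the floxed libraries. *Adgre1* made up nearly all of the floxed sums and read 41.1 to 42.2 FPKM in WT-GFP and 97.1, 99.4 and 42.9 in Hoxa-flox (adjusted p = 0.159, limma), and 29.2, 95.3 and 34.3 in Hoxa-del. The 5 late neutrophil markers summed to 3522 to 3819 in the WT libraries and to 91.6 to 1142 in the floxed libraries. Their part in the differences of the target genes was not tested.

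Other reported MLL fusion targets outside the cluster, a list of 30 genes of which 25 were tested, gave 0 of 25 in Hoxa-del against Hoxa-flox (median 0.05; 0.0304% of all symbols called) and 0 of 25 in WT-Cre against WT-GFP (median 0.01; 0.0152%). In Hoxa-flox against WT-GFP 9 were higher and 9 lower (median -0.16, all symbols 0.00; 26.8% of all symbols called), and in Hoxa-del against WT-Cre 10 were higher and 10 lower (27.2%). *Pbx3*, a TALE partner of Hox proteins, stood at 5.004 ± 1.45 FPKM (WT-GFP) and 157 ± 12.98 (Hoxa-flox; SD, n = 3; log2 change 4.75, adjusted p = 1.13e-08, limma). *Zfp521*, a zinc finger regulator of progenitors, averaged 0.0169 ± 0.0146 and 3.53 ± 0.548 (2.15, adjusted p = 2.73e-06). Lower were *Id2*, an inhibitor of basic helix-loop-helix factors (25.2 ± 1.51 and 0.936 ± 0.326; -3.77, adjusted p = 1.07e-08, limma), and *Lpp*, a LIM-domain protein of focal adhesions (18.8 ± 0.599 and 6.53 ± 0.687; -1.40, adjusted p = 1.73e-05). After Cre, *Pbx3* averaged 154 ± 7.15 FPKM in Hoxa-del and *Id2* 1.62 ± 0.160.

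**Figure D3:**
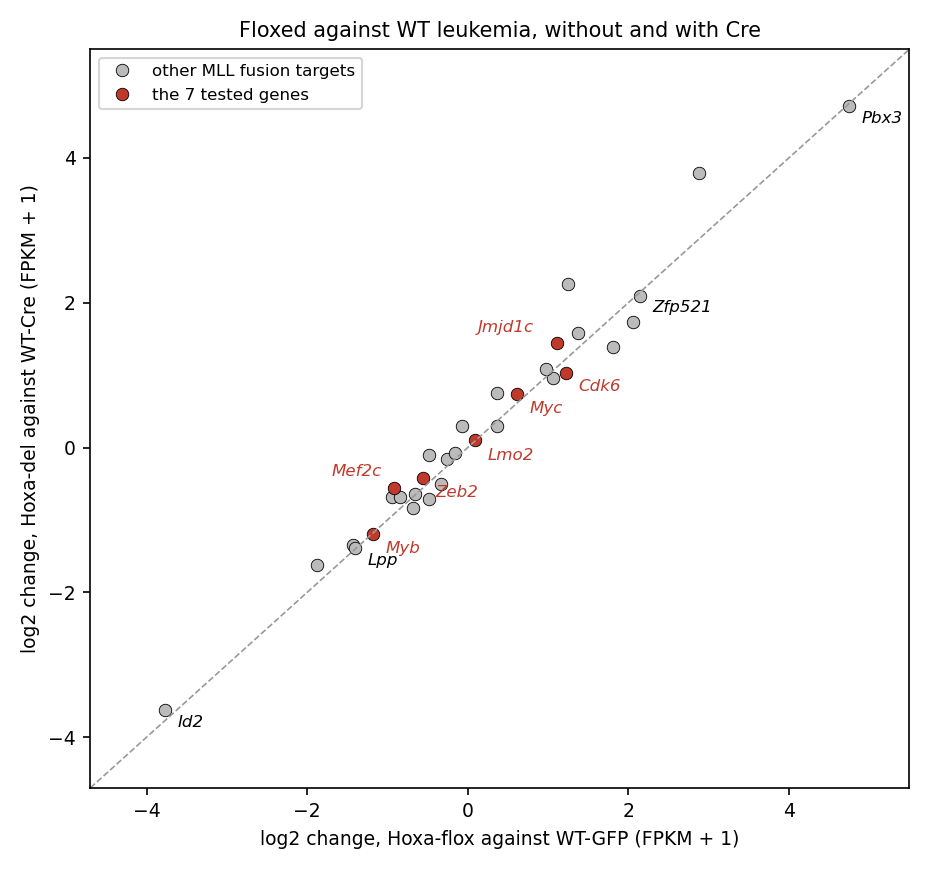
Log2 change (FPKM + 1) of the 7 tested genes (red) and 25 other MLL fusion targets (grey) in Hoxa-flox against WT-GFP (x axis) and in Hoxa-del against WT-Cre (y axis). These share no library, but the labels do not say whether they share leukemias. The dashed line marks equal changes. Pbx3 lies at 4.75 and 4.71 and Id2 at -3.77 and -3.62.

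The partners of the target genes were read by role, in Hoxa-flox against WT-GFP (26.8% of all symbols called). Around CDK6, 2 of 15 genes of the cyclin D and RB pathway were higher and 2 lower. The cyclins *Ccnd1* (9.59 ± 1.72 FPKM in WT-GFP, 0.730 ± 0.526 in Hoxa-flox, SD, n = 3) and *Ccnd2* (47.7 ± 6.01 and 8.78 ± 6.32) were lower, by -2.64 (adjusted p = 4.82e-06, limma) and -2.58 (0.00561). *E2f2*, an activator of S phase genes, and *Cdkn2d*, an inhibitor of CDK4 and CDK6, were higher, by 1.23 (adjusted p = 0.000643, limma) and 0.81 (0.00664). *Ccnd3* averaged 284 ± 21.9 and 189 ± 44.6 and did not pass (adjusted p = 0.102, limma). So the kinase gene was higher in the floxed cells while these cyclin genes were lower or not called.

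Around LMO2, 4 of 8 tested genes of its complex were higher in Hoxa-flox (13.3% of all symbols) and 0 lower (13.5%), at a median of 0.48 (all symbols 0.00). *Ssbp2*, which stabilizes LDB1, stood at 1.09 ± 0.0379 FPKM (WT-GFP) and 50.3 ± 12.04 (Hoxa-flox; SD, n = 3; 4.59, adjusted p = 2.42e-08, limma). *Gata2*, a transcription factor of stem cells, averaged 0.117 ± 0.0155 and 9.71 ± 3.46 (3.21, adjusted p = 1.39e-06, limma). The E protein gene *Tcf4* and the LIM-binding gene *Ldb1* were higher by 2.06 (adjusted p = 8.2e-05, limma) and 0.94 (0.00901). *Lyl1*, a basic helix-loop-helix partner, did not pass (122 ± 13.2 and 94.98 ± 24.96), and *Tal1* stayed at or below 0.43 FPKM. Nor did *Tcf3* (-0.07), *Tcf12* (-0.02) and *Ssbp3* (0.03) pass. Thus *Lmo2* itself showed no difference past the threshold, beside 4 tested partners that were higher and 4 that were not called.

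*Tcf4*, and *Dach1* below, also stand in the list of MLL fusion targets. The counts that follow stand beside 13.3% of all symbols called higher and 13.5% called lower in Hoxa-flox against WT-GFP. Of 10 genes of the MYC network, 0 were higher and 1 lower, *Mxd4*, a MAX partner that opposes MYC (WT-GFP 46.9 ± 3.15 FPKM, Hoxa-flox 24.7 ± 6.92, SD, n = 3; -0.94, adjusted p = 0.00972, limma). Of 8 partners of MEF2, *Hdac7* was higher (1.15, adjusted p = 0.0378, limma) and *Hdac4* (-1.03, 0.000944) and *Sik1* (-0.64, 0.00131) were lower. Of 3 tested partners of EYA, *Dach1* was higher (21.9 ± 0.796 and 44.0 ± 1.18; 0.98, adjusted p = 0.00253, limma). Of 10 corepressors of ZEB proteins and MECOM, *Kdm1a*, *Mta1* and *Hdac1* were higher by 0.61, 0.44 and 0.45 and *Rcor1* was lower by -0.46. Of 5 tested cofactors of MYB, *Men1*, encoding menin, the tether of MLL, was higher (0.75, adjusted p = 0.0295, limma). The calls of *Hdac7*, *Hdac1* and *Men1* were lost in 6, 6 and 5 of 12 alternatives.

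Paralogs of the target genes gave 0 higher and 2 lower of 10 tested in Hoxa-flox against WT-GFP, where 13.3% of all symbols were called higher and 13.5% lower. *Mef2a* was lower (19.9 ± 0.497 FPKM in WT-GFP, 11.2 ± 0.937 in Hoxa-flox, SD, n = 3; -0.79, adjusted p = 0.00502, limma) and stood above *Mef2c* in every library. *Lmo1* was lower (2.38 ± 0.451 and 0.268 ± 0.243; -1.42, adjusted p = 0.000939, limma). *Cdk4*, the paralog of *Cdk6*, read 79.6 to 100 FPKM in WT-GFP and 107 to 218 in Hoxa-flox and did not pass (0.60, adjusted p = 0.0968, limma). *Zeb1* stayed at or below 0.94 FPKM, and *Mycn* and *Mycl* at or below 0.26, below *Zeb2* and *Myc* in every library. In Hoxa-del against Hoxa-flox 0 of these 10 and 0 tested genes of the 7 partner lists passed (0.0304% of all symbols called).

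For *Myb*, *Cdk6*, *Jmjd1c* and *Zeb2* the table held several rows under the symbol, 17 in all, and the results above use the highest of each. The rows carry no coordinates, so which transcripts they hold was not tested. Row 2 of *Cdk6* read 185 to 200 FPKM in WT-GFP and 227 to 243 in Hoxa-flox, a difference of 0.30 that did not pass when all rows were tested (adjusted p = 0.0918, limma), and its row 3 was lower in Hoxa-flox by -2.56 (adjusted p = 0.0135, limma). The 4 rows of *Cdk6* thus moved unequally between the leukemias. The highest row held 98.1% of the symbol's FPKM in WT-GFP for *Myb*, 83.5% for *Zeb2*, 79.2% for *Jmjd1c* and 46.0% for *Cdk6*. Of the 13 lower rows, 12 had a WT-Cre mean above the WT-GFP mean, and 6 were higher without overlap. Most lower rows of the table did the same: of all 1572, 81.7% had a higher mean with Cre in WT cells and 31.6% were higher without overlap. In floxed cells 12 of 13 had the higher mean in Hoxa-del (79.8% of all lower rows), with 0 of 13 groups apart. Of all lower rows, 6.68% were higher and 0.827% lower without overlap there. None of the 13 passed the test in either comparison (limma). In the main fit over symbols, 0.0152% passed in WT cells and 0.0304% in floxed cells.

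**Figure D4:**
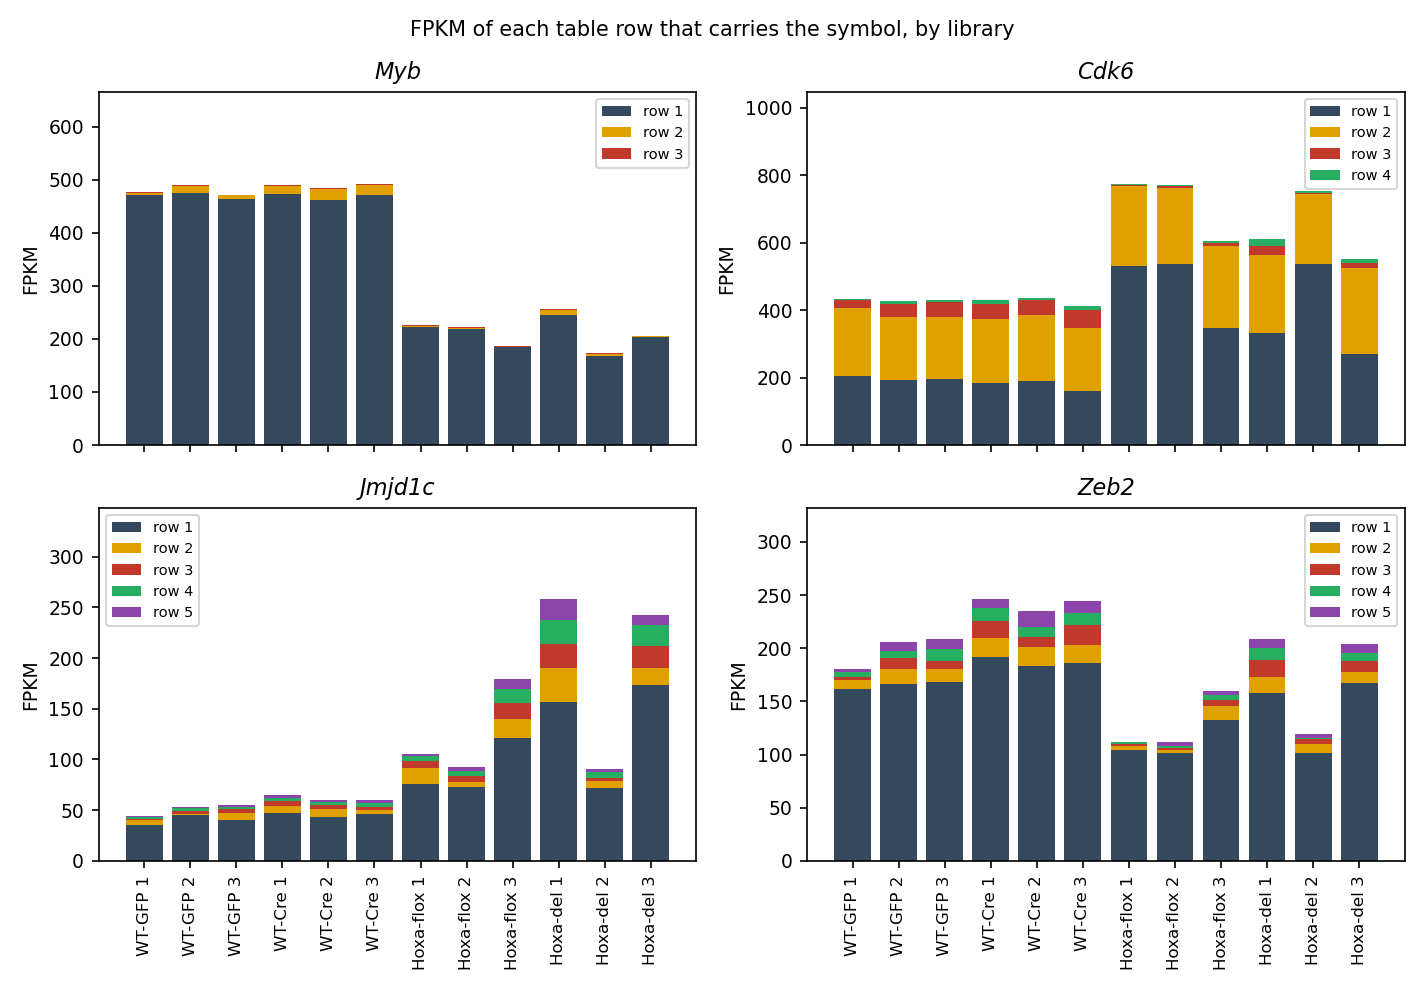
FPKM of every table row that carries the symbol Myb, Cdk6, Jmjd1c or Zeb2, stacked by library. Rows 1 and 2 of Cdk6 average 197.6 and 191 FPKM in WT-GFP, and row 1 is the larger in the floxed libraries.

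The symbols closest in pattern were found by the root mean square difference of log2(FPKM + 1) profiles over the 12 libraries, after each profile's mean was taken off. Closest to *Myb* were *Cpne2* (0.09) and *Syt17* (0.10), to *Myc* *Wipi2* (0.06) and *Zfp775* (0.09), and to *Cdk6* *Rpsa* (0.09) and *Psmd7* (0.09). *Zeb2* was closest to *1810013L24Rik* (0.08) and *Chd7* (0.08), *Lmo2* to *Scaf1* (0.06) and *Zfp646* (0.07), and *Mef2c* to *Psd3* and *Odf2l* (0.21 each). *Jmjd1c* was closest to *Gm15880* (0.11) and *RP23-23C4.6* (0.13). The profiles of the target genes themselves had a root mean square of 0.22 (*Lmo2*) to 0.75 (*Jmjd1c*). Whether libraries of a group or set are independent is not known, so these distances are a description.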

How the data were processed

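Per the labels' protocols, total RNA was isolated with TRIzol, and stranded libraries depleted of ribosomal RNA were sequenced on an Illumina NextSeq. Per the submitters' processing notes, the tools were STAR, Cufflinks and Cuffdiff (2.2.2.20150701); mm10 and GRCm38 are named as builds, with no role. The deposited values, 1 column per library and 28042 rows named by symbol, were taken as FPKM, the unit Cufflinks gives; the header states no unit, and for the authors' scaling and annotation no source used here gives detail. 0 columns were left without a sample.

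Of 25263 symbols, 1855 had several rows, of which the highest by mean was used. limma 3.58.1 (R 4.3.3, trend option) was fitted to log2(FPKM + 1) for the 13169 symbols averaging 1 FPKM or more, with 4 groups of 3 libraries in 1 fit; on this scale low genes change less than their ratio. Depth was estimated from values under a mean of 0.3 FPKM, which lie at steps of whole fragments for genes with 1 transcript. Tables and figures used Python 3.11.15, pandas 2.3.3 and numpy 2.4.6. The test was also run on simulated data, and no result above rests on that run. The 9 genes, the 9 lists and the tests were chosen with earlier results of these data known. Named were the 9 genes, up to 4 called members of each list without overlap of groups by smallest adjusted p, and the 2 symbols nearest in pattern. *Ccnd3*, *Lyl1*, *Tal1*, *Tcf3*, *Tcf12*, *Ssbp3*, *Cdk4*, *Zeb1*, *Mycn*, *Mycl*, *Hoxa7* and *Hoxa10* were named after their values were seen. Alternatives were a pseudocount of 0.1, no filter, upper quartile rescaling, only the groups compared, a replicate block, summed rows, each library left out and, added after seeing the data, the library set as a term and all rows kept.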

Additional observations from a re-analysis of the deposited data

How the results depend on the processing

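Counts of called target genes were 0 in both comparisons of Cre with the control virus and in the interaction under every alternative run, except Hoxa-del against Hoxa-flox without Hoxa-del 2; leaving out 1 library gave 0 to 2 there, 0 in WT cells and 0 in the interaction. In Hoxa-flox against WT-GFP leaving out 1 library gave 2 to 5 of 7 (main 5; lowest, 2, without WT-GFP 3; 3 without WT-GFP 1, WT-GFP 2, Hoxa-flox 1 or Hoxa-flox 2), and in Hoxa-del against WT-Cre 4 throughout. Over all symbols the counts with 1 library left out ran from 2 to 787 in Hoxa-del against Hoxa-flox (main 4; 787 without Hoxa-del 2), 0 to 7 in WT cells (main 2), 1 to 5 in the interaction (main 1), 2405 to 4195 in Hoxa-flox against WT-GFP (main 3525) and 2552 to 3995 in Hoxa-del against WT-Cre (main 3580). Without the filter they were 7, 5 and 4 for the first 3 of these, and with only the groups compared 1 for Hoxa-del against Hoxa-flox and 5 for WT cells. With the replicate block the count in WT cells was 0 and in Hoxa-del against Hoxa-flox 3, and 6 target genes were called in Hoxa-flox against WT-GFP, *Mef2c* being added. Whether replicate numbers pair the libraries was not settled. Deviations of same-numbered libraries correlated at 0.01, -0.01 and 0.09 in WT cells and at -0.30, 0.60 and 0.72 in floxed cells. In each genotype 3 of 6 libraries correlated best with their own number.

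Signs turned where the change was small. With 1 library left out, *Myb* ran from -0.164 to 0.109 in Hoxa-del against Hoxa-flox (above 0 without Hoxa-flox 1, Hoxa-flox 2 or Hoxa-del 2), from -0.0135 to 0.00832 in WT cells and from -0.161 to 0.112 in the interaction. *Mef2c* ran from -0.143 (without WT-Cre 3) to 0.356 in WT cells, and *Lmo2* from -0.0367 (without Hoxa-flox 1) to 0.312 in Hoxa-flox against WT-GFP. In the interaction *Myc* ran from -0.0387 to 0.214, *Cdk6* from -0.467 to 0.0271 and *Lmo2* from -0.202 to 0.147. Once library set was a term, *Myc* was 0.0450 and *Lmo2* 0.0196 in Hoxa-del against Hoxa-flox, and *Cdk6* 0.0556 and *Zeb2* -0.0391 in the interaction. With rows summed *Myb* was 0.0291 in WT cells. The cause was not tested. Depth, lowest in WT-Cre 2, limits what can be read of *Eya1* and *Mecom*.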
